A study of Mus musculus with 15 samples.

Results

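Inhibitory checkpoint genes encode the receptors with which activated lymphocytes are restrained and the ligands that engage those receptors on other cells. The 9 genes described here are Pdcd1 (PD-1), Lag3, Havcr2 (TIM-3), Tigit, Cd160 and Btla, all receptors, the PD-1 ligands Cd274 (PD-L1) and Pdcd1lg2 (PD-L2), and Tox, a transcription factor of chronically stimulated T-cells. They were chosen by gene name, and all 9 were found among the 48709 genes of the deposited count table. RNA from pancreatic islets of NOD/ShiLtJ females, a strain that develops autoimmune diabetes spontaneously after leukocytes invade the islets, was sequenced at 5 ages (4, 6, 8, 10 and 12 weeks) with 3 mice per age. The labels name no transgene or treatment, so age was the variable compared, and the islets were hand-picked after collagenase digestion, so leukocytes attached to an islet were sequenced with it. Total counts ran from 25407492 to 41616275 per sample.

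PD-1 and BTLA recruit phosphatases to the antigen receptor when they bind their ligands, which weakens signalling in T- and B-cells. LAG3 binds MHC class II, TIM-3 and TIGIT bind ligands on antigen-presenting and tissue cells, and CD160 shares the ligand HVEM with BTLA. PD-L1 can be made by many cell types, including islet endocrine cells, and its gene is a classical target of interferon gamma, which induces the transcription factor IRF1. In NOD mice the PD-1 pathway is known to hold back the autoimmune attack on beta-cells.

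On the genome (GRCm38, whose annotation the deposited regions match exactly for 6 of the 9, the ends differing for Pdcd1lg2, Tigit and Btla), Cd274 occupies chromosome 19 from 29367455 to 29388095 on the plus strand, and Pdcd1lg2 starts 22823 bases after its end, at 29410919. The receptors lie apart: Pdcd1 on chromosome 1, Cd160 on 3, Lag3 on 6, Havcr2 on 11, and both Tigit and Btla on 16. Tox lies on chromosome 4. All are protein-coding. Cd160 overlaps Pdzk1 on the opposite strand, which held 211 counts in all samples against 753 for Cd160, and counting by strand is not given in the sources used here, so reads of that pair may be mixed. The overlap of Tox with Gm11802 concerned 2 counts.

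The 250 bases upstream of the RefSeq start, which for Cd274 lies slightly before the start given above, are shown for Cd274 and for 2 interferon-induced genes that the results below set beside it, Irf1 and Gbp7, with capitals marking any match to either of 2 interferon motifs (RefSeq sequence, GRCm38.p6, plus strand, the reference strain and not NOD). The motifs searched on both strands were the core of the interferon-stimulated response element, spelled GAAA, any 2 bases and GAAA again, and the gamma-activated site, spelled TTCNNNGAA. A match is a description of letters, not evidence of a bound site.
Cd274, chr19:29367188-29367437: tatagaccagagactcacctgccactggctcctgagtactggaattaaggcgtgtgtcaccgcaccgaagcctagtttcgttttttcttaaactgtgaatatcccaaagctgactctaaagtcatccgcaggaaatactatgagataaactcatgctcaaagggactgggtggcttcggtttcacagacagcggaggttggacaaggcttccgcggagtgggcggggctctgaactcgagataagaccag
Irf1, chr11:53769764-53770013: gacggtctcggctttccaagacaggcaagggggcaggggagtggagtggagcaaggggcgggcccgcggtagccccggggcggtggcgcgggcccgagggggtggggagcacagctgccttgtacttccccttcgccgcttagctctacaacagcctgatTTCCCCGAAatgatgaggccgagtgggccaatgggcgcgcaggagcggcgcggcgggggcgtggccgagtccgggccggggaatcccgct
Gbp7, chr3:142530086-142530335: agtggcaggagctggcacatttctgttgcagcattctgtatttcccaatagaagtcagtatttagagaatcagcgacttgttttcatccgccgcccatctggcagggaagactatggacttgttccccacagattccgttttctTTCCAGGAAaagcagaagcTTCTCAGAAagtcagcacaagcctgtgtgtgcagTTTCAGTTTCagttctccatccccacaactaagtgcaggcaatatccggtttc
Over windows from 250 bases before to 50 after the start, the response element core was present in 3.45% and TTCNNNGAA in 8.33% of 32534 promoters. Neither was found in the window of Cd274, Pdcd1lg2, Pdcd1, Havcr2, Tigit or Btla, and TTCNNNGAA was found in 1 of 2 windows of Cd160, from position -234. Among 7 interferon-inducible GTPase genes with a window, the response element core was present in 7, among 13 antiviral genes in 8, among 10 interferon signalling genes in 2 and among 8 genes of antigen presentation and interferon chemokines in 2. In the same order, TTCNNNGAA was present in 4 of the 7, 3 of the 13, 3 of the 10 and 1 of the 8. Among 7 T-cell marker genes with a window, the response element core was present in 0 and TTCNNNGAA in 1. No match says only that these letters are not in the window. The promoters of Lag3 and Tox were not analysed here.

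Per unit of transcript length, on the TPM scale of the authors (transcripts per 1000000 transcripts), Cd274 had the highest mean of the 9 genes at every age. At 4 weeks it stood at 11.6 ± 7.33 TPM (mean ± SD, n = 3), followed by Tox at 5.99 ± 0.339, while all receptors and Pdcd1lg2 averaged below Tox, from 0.198 ± 0.303 for Pdcd1lg2 to 1.83 ± 1.54 for Havcr2. The mice overlapped between Cd274 and Tox at that age, whereas Tox did not overlap Havcr2. By 12 weeks the order had become Cd274 (66.9 ± 24 TPM), Btla (38.0 ± 2.92), Lag3 (36.2 ± 14.2), Tigit (26.7 ± 11.1), Pdcd1 (20.1 ± 7.41), Havcr2 (19.0 ± 5.46), Tox (8.85 ± 2.05), Pdcd1lg2 (4.76 ± 1.69) and Cd160 (2.64 ± 0.959). Thus Tox moved from the second to the seventh place. Neighbours in the order at 12 weeks overlapped between mice except at 2 places, Havcr2 above Tox and Tox above Pdcd1lg2. The levels of single genes that follow are, unless given as counts, counts per 1000000 counts (CPM) on library sizes scaled by the trimmed mean of M-values. They are not corrected for transcript length and compare a gene between mice, not the levels of different genes.

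**Figure D1:**
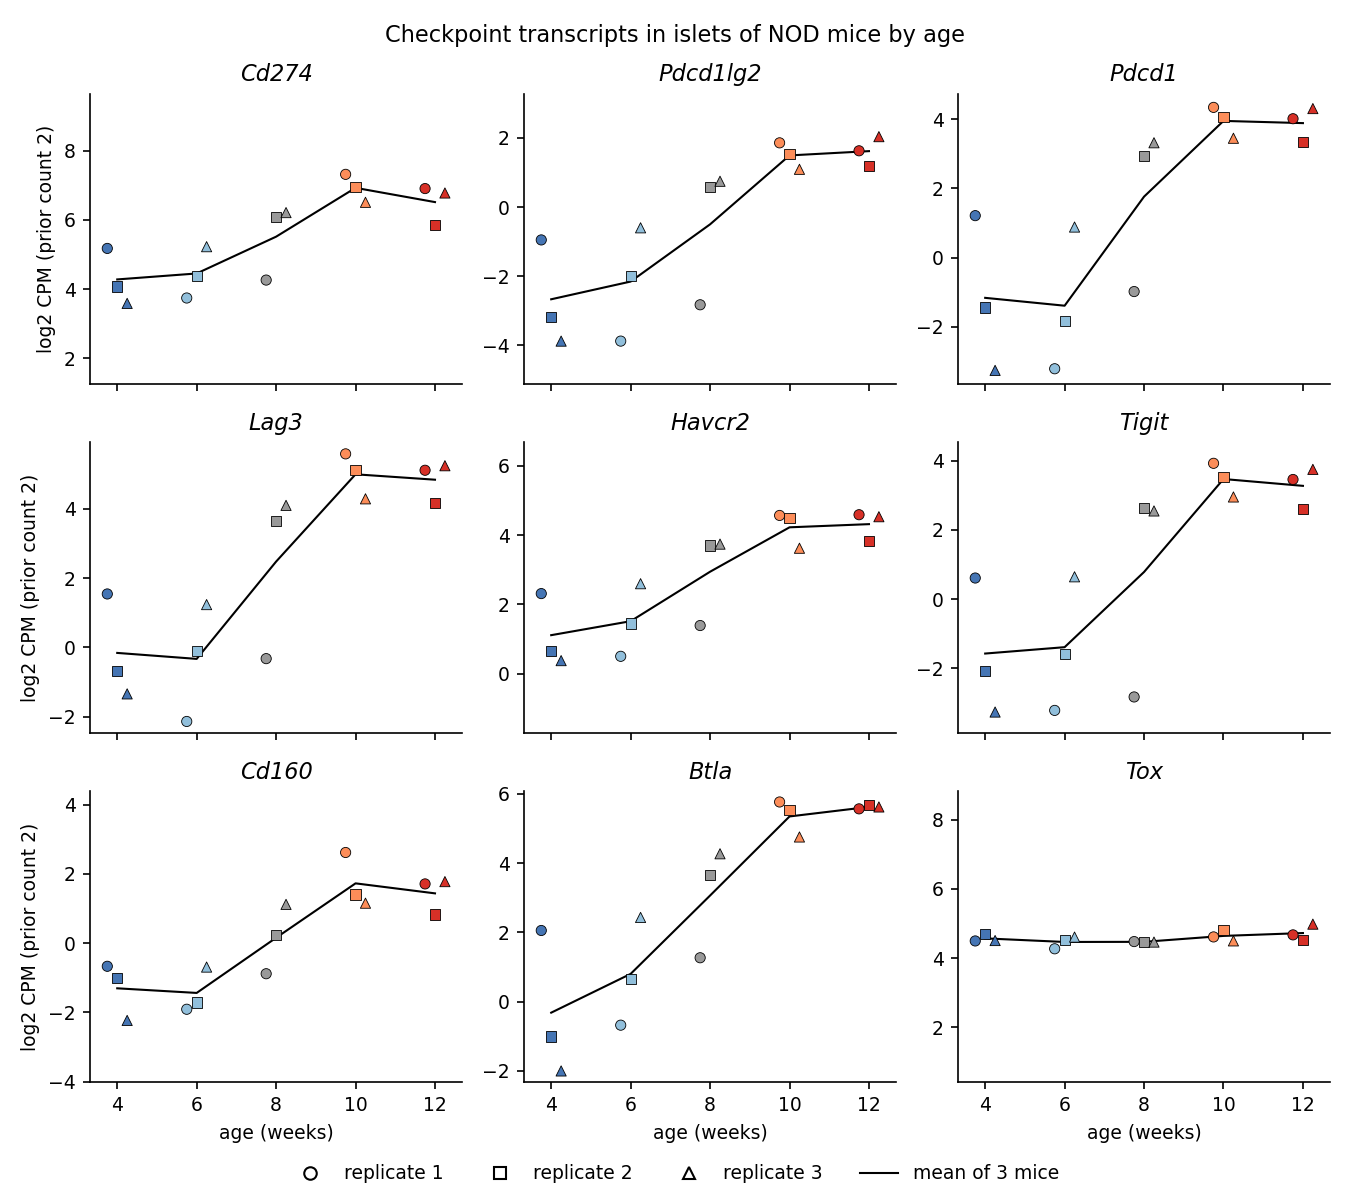
Each panel gives one gene, with age in weeks on the x axis and log2 CPM (prior count 2) on the y axis. Every point is a mouse and the line joins the means of 3 mice. For the 8 genes other than Tox every mouse of 10 or 12 weeks lay above every mouse of 4 or 6 weeks.

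Among the ligands, Cd274 rose 4.43-fold between 4 and 12 weeks. It measured 36.2, 16.8 and 12.0 CPM in the mice of 4 weeks, 13.4, 20.9 and 37.4 at 6 weeks, and 19.2, 67.4 and 74.2 at 8 weeks. It then measured 159.6, 124 and 91.2 CPM at 10 weeks and 120.0, 58.1 and 109.9 at 12 weeks. No mouse of 10 or 12 weeks lay as low as any mouse of 4 or 6 weeks, and the lowest 8-week mouse lay inside the range of the young mice. The log2 fold change at 12 against 4 weeks was 2.15 ± 0.551 (SE; edgeR quasi-likelihood, Benjamini-Hochberg adjusted p = 0.00594). Pdcd1lg2, the second PD-1 ligand and typically a product of dendritic cells and macrophages, was far scarcer, with 12, 1 and 0 counts in the 4-week mice and 93, 66 and 128 counts at 12 weeks. It rose by 4.18 ± 1.101 on the log2 scale (adjusted p = 0.00687), and the 4-week side of that value rests on few counts. With 1 mouse left out the value ran from 3.58 without replicate 3 to 7.01 without replicate 1 of the 4-week mice, and that of Cd274 from 1.85 to 2.74 without the same mice.

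Of the receptors, Btla and Lag3 had the largest log2 fold changes with all mice, and the second place of Lag3 rested on replicate 1 of the 4-week mice. Without that mouse the values were 7.36 for Btla, 6.62 for Tigit, 6.54 for Pdcd1 and 6.10 for Lag3, and whether receptors differed from one another was not tested. Btla, an inhibitory receptor of B- and T-cells, measured 4.08, 0.428 and 0.181 CPM at 4 weeks and 47.3, 51.2 and 49.2 CPM at 12 weeks, where the mice lay close together. Its log2 fold change was 4.96 ± 0.996 (adjusted p = 0.001503). Lag3, the MHC class II receptor of activated T-cells, measured 2.84, 0.556 and 0.326 CPM at 4 weeks and 34.6, 17.9 and 37.9 at 12 weeks, a log2 fold change of 4.59 ± 1.04 (adjusted p = 0.00295). In both genes the mouse of replicate 1 was the high one at 4 weeks.

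Pdcd1, the receptor of both ligands, measured 2.25, 0.299 and 0.0362 CPM at 4 weeks, the last being 1 count, and 16.0, 10.0 and 19.7 CPM at 12 weeks. Tigit, a receptor of T- and NK-cells, measured 1.46, 0.171 and 0.0362 CPM at 4 weeks and 10.9, 6.05 and 13.4 CPM at 12 weeks. For both genes the groups stood apart without overlap, and the log2 fold changes were 4.13 ± 1.17 for Pdcd1 (adjusted p = 0.0103) and 4.16 ± 1.23 for Tigit (adjusted p = 0.0127). The call of Tigit was lost when replicate 2 or replicate 3 of the 4-week mice was left out, with log2 fold changes of 3.76 and 3.599. Over all mice left out in turn the log2 fold change ran from 3.599 to 6.62 for Tigit and from 3.55 to 6.54 for Pdcd1, with the highest value of both without replicate 1 of the 4-week mice.

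Havcr2 and Cd160 had the smallest log2 fold changes of the receptors. Havcr2, which macrophages and dendritic cells make as well as T-cells, measured 4.90, 1.496 and 1.23 CPM at 4 weeks and 24.05, 14.2 and 23.1 at 12 weeks, a log2 fold change of 3.001 ± 0.697 (adjusted p = 0.00342). Cd160, a receptor of NK-cells and of some CD8+ T-cells, measured 0.561, 0.428 and 0.145 CPM at 4 weeks and 3.21, 1.71 and 3.36 at 12 weeks. Its log2 fold change was 2.86 ± 0.645 (adjusted p = 0.00289). Without replicate 1 of the 4-week mice the values were 3.91 for Havcr2 and 3.28 for Cd160.

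Tox did not pass the test in any comparison of 2 ages. It measured 22.5, 26.04 and 22.7 CPM at 4 weeks, 22.2, 22.1 and 22 at 8 weeks and 25.4, 22.9 and 31.5 at 12 weeks, with 485 to 1117 counts per mouse over all ages. The mice of 4 and 12 weeks overlapped in CPM. In TPM they did not, with 5.69 to 6.35 at 4 weeks and 7.35 to 11.2 at 12 weeks. The log2 fold change was 0.16 ± 0.125 (adjusted p = 0.283), with a 95% interval of the fold from 0.929 to 1.35. Scaling by library totals in place of the trimmed mean raised the median of all genes at 12 against 4 weeks by 0.245 on the log2 scale, and with it Tox to 0.42, which then passed the test. Replicate 1 of the 6-week mice held 485 Tox counts beside 5 summed counts of Cd3e, Cd3d and Cd3g. Replicate 3 of the 4-week mice held 627 beside 13. Which cells made Tox was not tested, so its level in T-cells cannot be read here.

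Across the 9 genes, 8 were called higher at 12 than at 4 weeks (adjusted p under 0.05) and 0 lower, against 26.3% of the 16554 tested genes called higher, 27.2% called lower and 53.5% called in either direction. The same 8 were higher in every 12-week mouse than in any 4-week mouse, as were 30.3% of tested genes. The median log2 fold change was 4.13 over the 9 genes and -0.05 over all tested genes. When 10 and 12 weeks were pooled against 4 and 6 weeks (6 mice against 6), the same 8 genes were called higher, against 30.1% of all genes, with log2 fold changes of 2.27 for Cd274, 3.81 for Pdcd1lg2, 4.37 for Pdcd1, 4.77 for Lag3, 2.78 for Havcr2, 4.23 for Tigit, 3.16 for Cd160 and 4.54 for Btla. With 1 mouse left out, these values ran from 3.51 to 5.23 for Pdcd1lg2, 4.08 to 5.58 for Pdcd1 and 4.53 to 5.53 for Lag3. They ran from 3.94 to 5.45 for Tigit and from 4.27 to 5.74 for Btla. The ranges were 2.12 to 2.56 for Cd274, 2.59 to 3.23 for Havcr2 and 2.86 to 3.44 for Cd160. These 8 genes did not overlap between the late and the early mice, which 19.7% of tested genes did in the upward direction. Both contrasts share mice, so the second is no separate evidence. A change at any of the 5 ages was called for 8 of the 9 genes, and for 56% of all genes.

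The steps between neighbouring ages were less sharply resolved. From 4 to 6 weeks none of the 9 genes was called by edgeR, and none had an unadjusted p under 0.05, against 0.0906% of tested genes called by edgeR and 8.67% with an unadjusted p under 0.05. DESeq2 called none of the 9 (1.63% of all genes), and the edgeR exact test none of the 6 that passed its filter at those ages (1.74%). From 6 to 8 weeks none was called by any of the 3 tests (0% of all genes by edgeR, 3.29% by DESeq2 and 1.01% by the exact test), but 7 had an unadjusted p under 0.05 (18% of all genes), and 7 passed the threshold used by the study, a fold change of at least 1.5 with an unadjusted p under 0.05, all of them higher, against 8.4% of tested genes higher by that rule. Those 7 were Cd274 and the 6 receptors, with log2 fold changes from 1.17 for Cd274 to 3.21 for Lag3. The count of 7 rested on single mice. It was 1 without replicate 3 and 3 without replicate 2 of the 8-week mice. It was 2 without replicate 1 or replicate 2 of the 6-week mice, and 8 at most. Over all tested genes 1625 passed the threshold of the study in either direction with all mice. There were 927 without replicate 3 of the 8-week mice, 972 without replicate 2 of the 6-week mice, and 2259 at most.

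From 8 to 10 weeks 8 of the 9 genes, all but Havcr2, were higher in every 10-week mouse than in any 8-week mouse, as were 17.2% of tested genes. None was called by edgeR (16.8% of all genes were), 3 had an unadjusted p under 0.05 (37.9% of all genes), and 3 passed the threshold of the study higher (11.1%), namely Cd274, Cd160 and Btla, a count that dropped to 0 without replicate 1 and to 1 without replicate 2 of either age, 10-week or 8-week. Over all tested genes 2306 passed the threshold of the study in either direction with all mice, and 1270 to 3518 with 1 mouse left out. There were 1270 without replicate 1 of the 10-week mice and 1275 without replicate 1 of the 8-week mice. DESeq2 called 1 of the 9, Cd160, where it called 25.3% of all genes, and the exact test called none (0.881% of all genes). From 10 to 12 weeks none was called (0% of all genes), none had an unadjusted p under 0.05 (7.52%), and DESeq2 and the exact test called none (0.0822% and 0.0434%). The log2 fold changes of that last step lay between -0.38 for Cd160 and 0.22 for Btla.

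**Figure D2:**
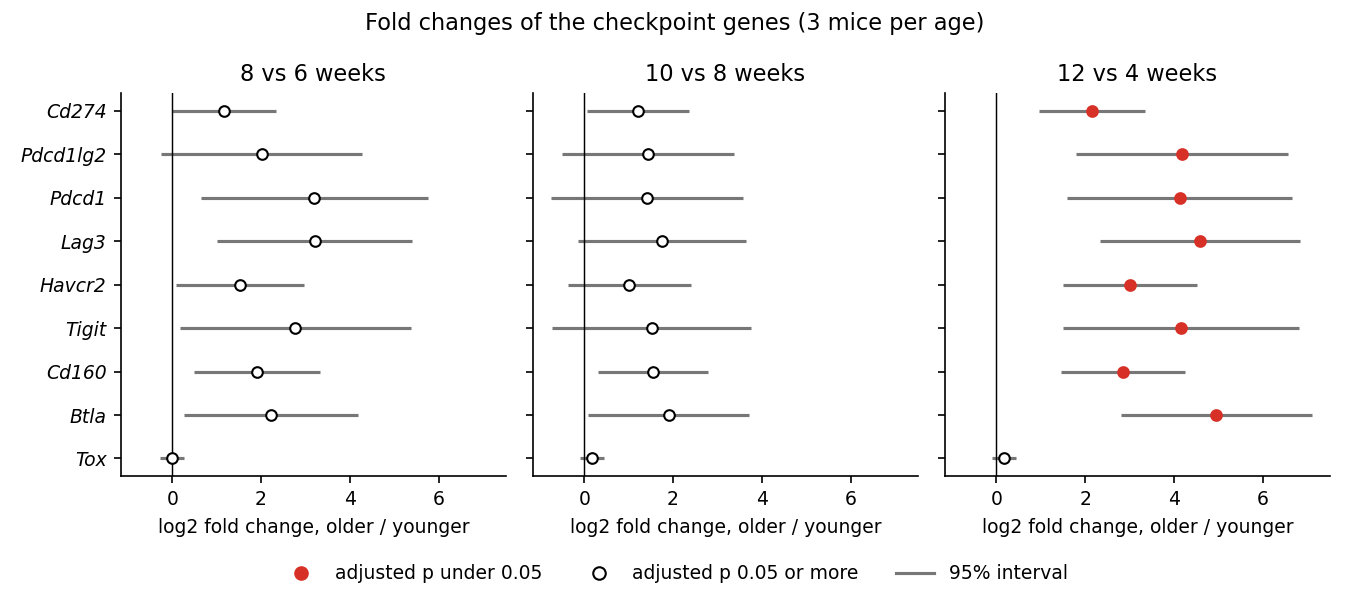
Log2 fold changes of the 9 genes, older over younger age, on the x axis for 3 comparisons, with 95% intervals as bars. Filled points passed an adjusted p of 0.05. The intervals of 8 genes lie above 0 at 12 against 4 weeks, and that of Tox spans 0 in all 3 panels.

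The mice of one age were far from uniform. At 8 weeks replicate 1 measured 19.2 CPM of Cd274 against 67.4 and 74.2 in the other mice, 0.438 CPM of Pdcd1 against 7.63 and 9.89, and 0.730 CPM of Lag3 against 12.6 and 17.1. Its values fell within the range of the 4- and 6-week mice for these 3 genes. Replicate 1 at 4 weeks and replicate 3 at 6 weeks were the highest young mice for Cd274 and for the 6 receptors. The same mice stood high or low in T-cell transcripts: 12 T-cell markers summed to 49.3, 7.95 and 3.62 CPM at 4 weeks, 4.00, 16.0 and 49.2 at 6 weeks, and 13.2, 176 and 251 at 8 weeks. At 10 weeks they summed to 644, 559.7 and 274 CPM, and at 12 weeks to 504, 483 and 651.

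In bulk RNA a change in the number of cells of a type cannot be told apart from a change in RNA per cell, and the leukocyte markers moved with the checkpoint genes. The counts of markers that follow stand against 26.3% of all tested genes called higher and 27.2% called lower. At 12 against 4 weeks 12 of 12 T-cell markers were called higher (median log2 fold change 4.79), as were 8 of 8 B-cell markers (8.38), 6 of 6 NK-cell markers (3.92), 8 of 8 macrophage markers (2.75) and 9 of 9 dendritic cell markers (3.25). Of 12 endocrine markers 11 were called lower (median -0.90), and their sum, led by Ins2, lay between 294637 and 328853 CPM at 4 weeks and between 142675 and 183382 CPM at 12 weeks. Lck or Cd4 had the highest CPM of the T-cell markers in each mouse, without correction for length, and Cd8b1 and, named after its value was seen, Cd247 were at 0 counts in replicate 3 of the 4-week mice. All 6 NK-cell markers were at 0 counts in replicate 1 of the 6-week mice. Lymph node transcripts such as Glycam1 and Cxcl13 also rose, with 6 of 6 called higher and sums of 337, 514.7 and 453 CPM at 12 weeks. The part of each cell type in the rise of the checkpoint genes was not tested.

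With the mean log2 CPM of the T-cell markers added to the model as a covariate, none of the 9 genes was called at 12 against 4 weeks, and 172 of all tested genes were called, against 8858 without the covariate. In that fit the log2 fold change of Cd274 was -0.17, that of Pdcd1 -1.14, that of Tigit -1.73 and that of Btla 1.102. The covariate itself rose with age.

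Intestinal transcripts marked 2 libraries. In replicate 2 at 6 weeks and replicate 1 at 12 weeks 10 intestinal markers summed to 129 and 463 CPM, with none of the 10 at 0 counts, whereas in the other 13 mice they summed to 36.5 to 78.1 CPM, with 3 to 7 of the 10 at 0 counts. Without both libraries 8 of the 9 genes were still called at 12 against 4 weeks. Of all genes 8858 were called there in the main fit, and 7226 to 9213 with 1 mouse left out. The other alternative fits, the one without both libraries among them, called 172 to 8722, the lowest under the T-cell covariate. Without both libraries the number of the 9 checkpoint genes past the threshold of the study from 6 to 8 weeks dropped from 7 to 1. Over all tested genes the number past that threshold, in either direction, dropped from 1625 to 873.

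The receptors were next set against CD3, the signalling complex of the T-cell receptor, to ask whether they rose more or less than T-cell transcripts. Per 1000 counts of Cd3e, Cd3d and Cd3g together, Pdcd1 gave a median of 180.4 counts (69.0 to 304) in the 6 mice of 4 and 6 weeks and 141 (100.3 to 186) in the 6 mice of 10 and 12 weeks. The late-minus-early difference on the log2 scale was -0.32 (2-sided exact permutation test, n = 6 and 6, adjusted p = 0.392 over 7 genes). For Lag3 it was -0.61 (adjusted p = 0.212), for Btla -0.55 (0.273) and for Tigit -0.65 (0.0758) by the same exact test. None of these 4 differences passed the test, which does not show that the ratios were equal. That of Tigit passed without replicate 2 of the 6-week mice, at -0.79 (exact permutation, adjusted p = 0.0189, with a range of 0.0189 to 0.178 over the mice left out).

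Havcr2 and Cd160 fell relative to CD3. Havcr2 dropped from a median of 1196 counts per 1000 CD3 counts (427 to 6800) to 178 (142 to 223), and Cd160 from 193 (48.9 to 1000) to 26.01 (17.05 to 44.03). The early and late mice did not overlap in either (exact permutation p = 0.00216, the smallest that 6 against 6 can give, adjusted p = 0.00505). Tox gave a median of 16993 counts per 1000 CD3 counts (1958 to 97000) in the early and 229 (177 to 387) in the late mice, a ratio that follows the rise of its CD3 denominator, since Tox itself was not called, and from which nothing is read about Tox. The denominator was small in the young mice, with 5, 13 and 23 CD3 counts in 3 of them and 116, 272 and 307 in the others. Between 8 and 12 weeks no exact test can pass, since 3 against 3 mice cannot go below p = 0.1.

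**Figure D3:**
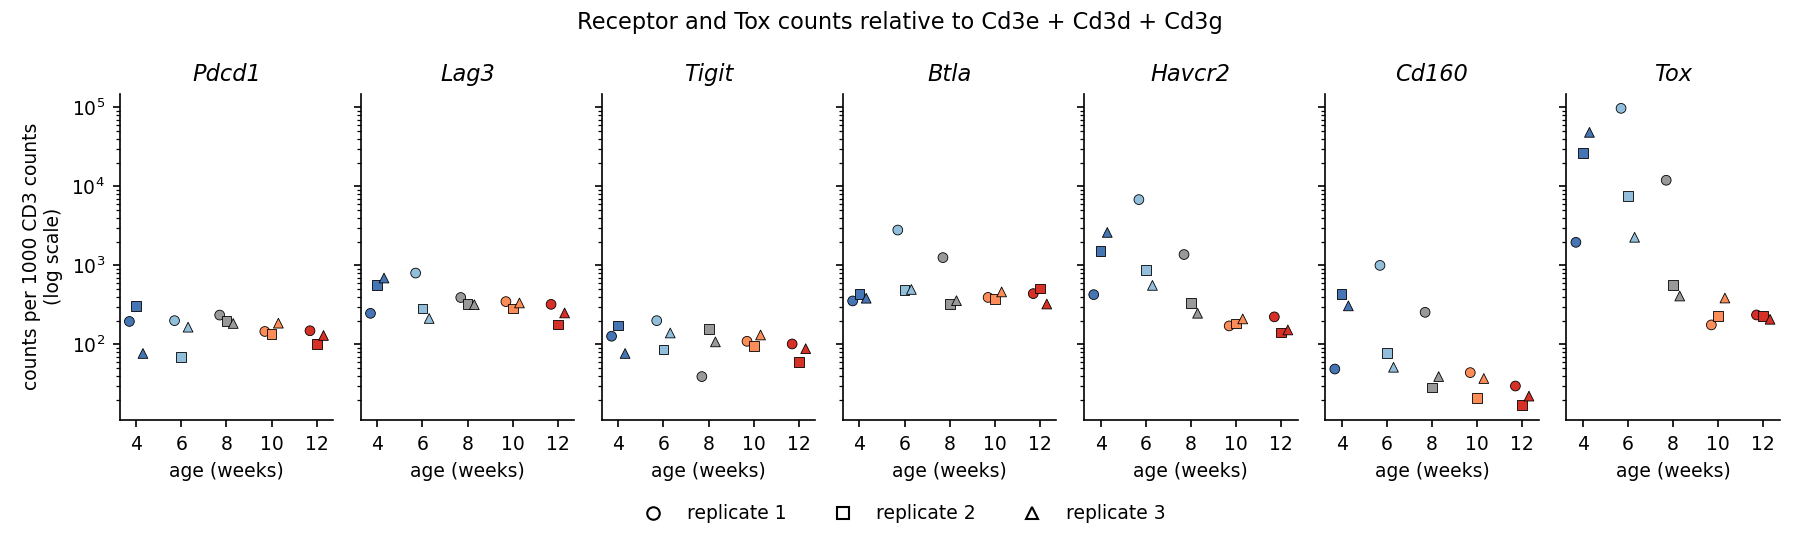
Counts of each gene per 1000 summed counts of Cd3e, Cd3d and Cd3g on a log y axis, by age in weeks on the x axis, with a point per mouse. The early and late mice overlap for Pdcd1, Lag3, Tigit and Btla, while Havcr2, Cd160 and Tox are lower at 10 and 12 weeks than at 4 and 6 weeks.

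Cd274 was then compared with the receptors within each mouse, as the difference of their log2 CPM. Cd274 itself rose by 2.35 on this scale between early (4 and 6 weeks) and late mice (10 and 12 weeks). Such a difference depends on transcript length, so only its change between ages is read. Cd274 minus Pdcd1 was 5.65 ± 1.27 log2 units in the early mice and 2.81 ± 0.245 in the late mice (SD, n = 6 each), so that the difference fell by 2.84. It fell by 2.81 against Lag3, fell by 2.498 against Tigit, fell by 2.89 against Btla and fell by 3.05 against the mean of the T-cell markers. In each of these 5 the early and late mice did not overlap (2-sided exact permutation p = 0.00216, the smallest possible, adjusted p = 0.00397 over 11 differences). Thus Cd274 rose less than these 4 receptors and the T-cell markers.

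Against Havcr2 and Cd160 the difference changed by -0.61 and -0.60 log2 units, with overlap between early and late mice (exact permutation, adjusted p = 0.0130 and 0.0119). Between 4 and 12 weeks alone, with 3 mice each, the exact permutation test cannot go below p = 0.1, which 10 of the 11 differences reached.

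Interferon-response genes lay on both sides of Cd274. Relative to the mean of 12 interferon-inducible GTPases, which guard cells against intracellular pathogens, Cd274 fell by 0.78 log2 units from early to late mice (exact permutation, adjusted p = 0.00529). Relative to Irf1, an interferon-induced transcription factor, it rose by 0.68 without overlap (adjusted p = 0.00397), and relative to the mean of 18 antiviral genes it rose by 0.54 (adjusted p = 0.00529). Whether the change relative to an interferon gene differed from that relative to a receptor was not tested. The GTPases include near-identical paralogs among which reads may be split uncertainly.

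**Figure D4:**
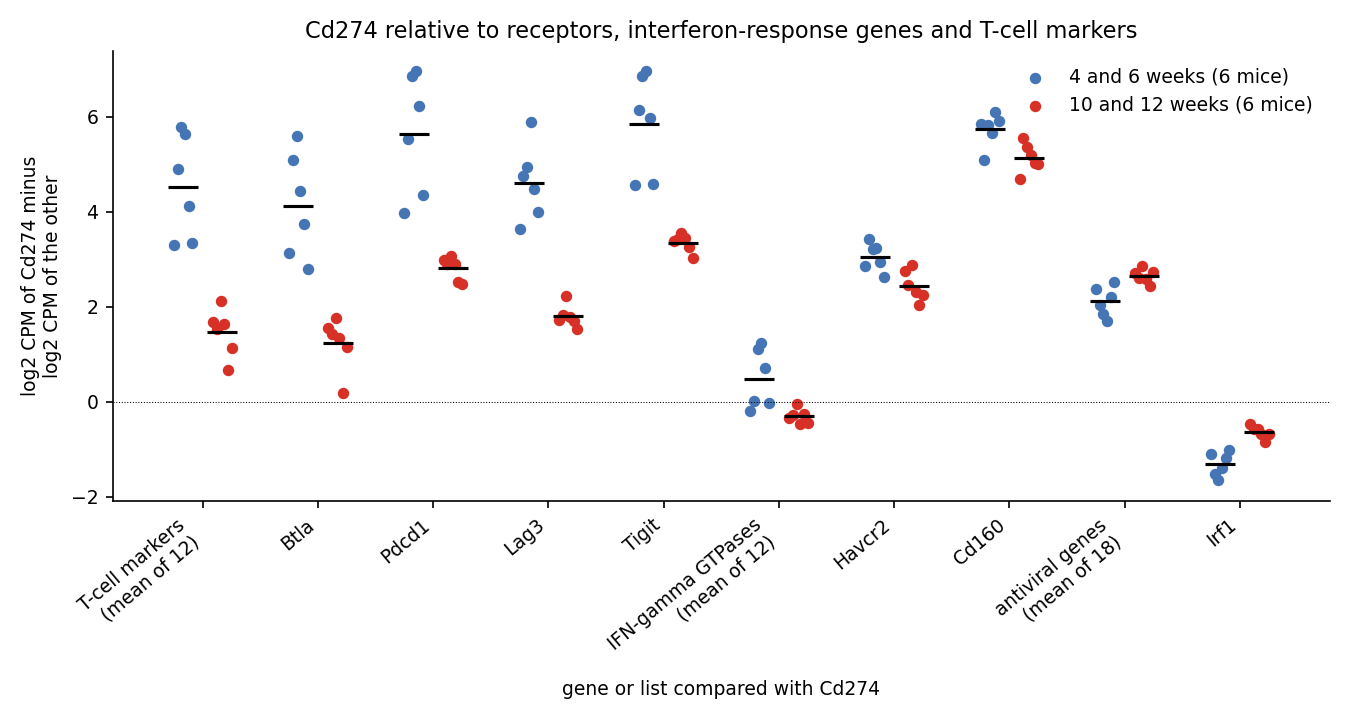
Log2 CPM of Cd274 minus that of each gene or list mean (y axis) in the 6 mice of 4 and 6 weeks and the 6 mice of 10 and 12 weeks, with bars at the means. The late mice lie below the early mice without overlap for the T-cell markers, Btla, Pdcd1, Lag3 and Tigit, and above them without overlap for Irf1.

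Most genes of the 4 interferon lists were called higher, against 26.3% of all tested genes. Of 11 interferon signalling genes 11 were called higher at 12 against 4 weeks, among them Ifng, the cytokine itself, with a log2 fold change of 3.45, and the kinase gene Jak1 with 0.75. Of 12 interferon-inducible GTPases 10 were called higher (median 2.56), with Gbp8 at 3.68, Gbp4 at 2.94 and Gbp2 at 2.80. The 2 that did not pass were Iigp1 (2.39) and Gbp6 (2.53), the latter named after its value was seen. Of 18 antiviral genes 17 were called higher (median 1.92), including Oas2 (2.55), Bst2 (2.31) and Ddx58 (1.34), and of 12 genes of antigen presentation and interferon chemokines 9 were (median 2.48), including B2m (3.03), Ciita (3.96) and Nlrc5 (3.21). The 3 of that list that did not pass were its 3 chemokines, Cxcl9 (3.11), Cxcl10 (2.35) and Cxcl11 (1.66), and the antiviral gene that did not was Ifih1 (0.38), all 4 named after their values were seen. The median log2 fold change over all tested genes was -0.05.

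Mice of the same age also differed from one another in step. After the age mean was subtracted, Cd274 correlated over the 15 mice with Irf1 (Pearson r = 0.993, Spearman rho = 0.975), the GTPase mean (r = 0.982, rho = 0.975) and Ifng (r = 0.971, rho = 0.982). It also correlated with Havcr2 (r = 0.980, rho = 0.989), Lag3 (r = 0.974, rho = 0.979), Tigit (r = 0.964, rho = 0.982), the antiviral mean (r = 0.961, rho = 0.929), Pdcd1 (r = 0.955, rho = 0.979), the T-cell marker mean (r = 0.941, rho = 0.950) and Btla (r = 0.900, rho = 0.904). Over 11 relations the exact permutation p within ages, over all arrangements, was between 0.000129 and 0.00129 for r and between 0.000129 and 0.00412 for rho, and after adjustment between 0.000354 and 0.00129 for r and between 0.000354 and 0.00412 for rho. Without the 2 mice farthest from the median of the other measure r ran from 0.894 for Btla to 0.993 for Irf1. Without the 2 mice that deviated most from their age mean it ran from 0.805 for Btla to 0.989 for Irf1. All genes were read from the same libraries, and whether r differed between partners was not tested.

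**Figure D5:**
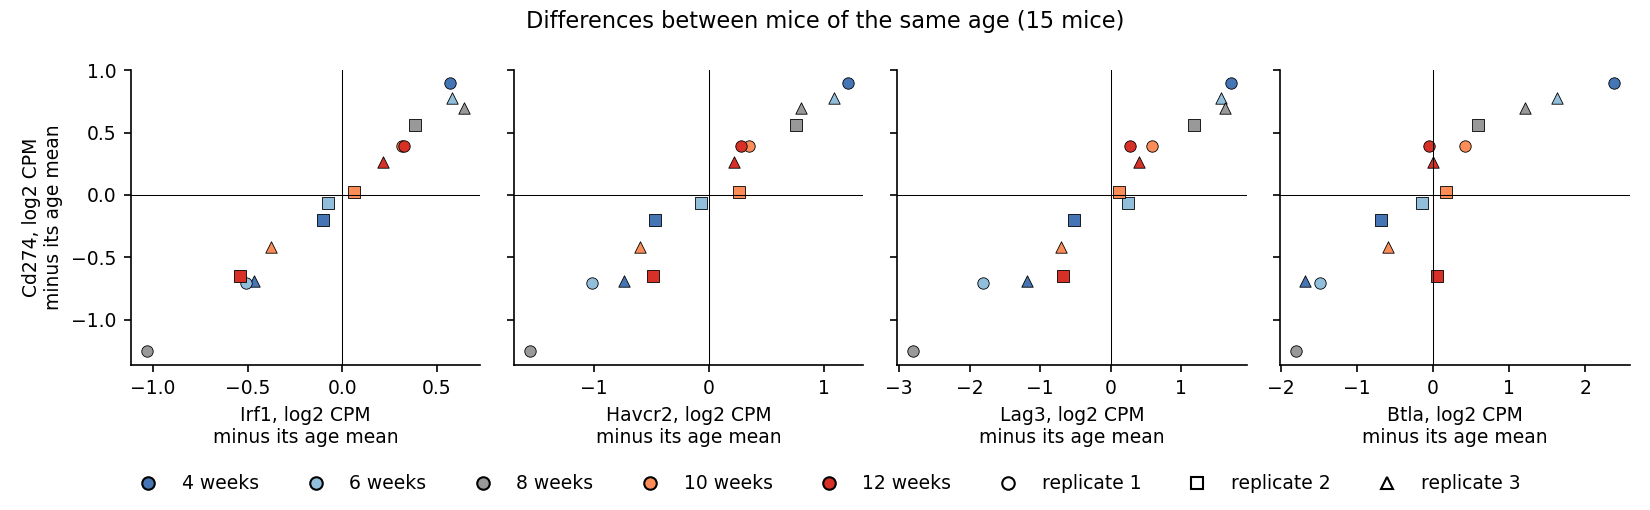
Deviation of Cd274 from its age mean (y axis, log2 CPM) against that of Irf1, Havcr2, Lag3 and Btla (x axes, log2 CPM) in 15 mice, coloured by age. The correlation is 0.993 for Irf1 and 0.900 for Btla, and the 12-week mice spread more along the Cd274 axis than along the Btla axis.

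In the 12-week mice Cd274 parted from Btla and from the T- and B-cell marker sums, but not from Pdcd1, Lag3, Tigit or Cd160. Replicate 2 measured 58.1 CPM of Cd274 against 120.0 and 109.9 in the other 12-week mice, 104.6 CPM of Irf1 against 191 and 177, and 1.74 CPM of Ifng against 5.12 and 4.62. Its GTPases summed to 903 CPM against 2213 and 1977. In the same mouse the T-cell markers summed to 483 CPM against 504 and 651, and Btla measured 51.2 CPM against 47.3 and 49.2. The B-cell markers were highest there, with a sum of 519.8 CPM against 312 and 480.2. The NK-cell markers were lower, with a sum of 11.3 CPM against 18.4 and 20.4. Eomes gave 189 of their 338 counts in that mouse, and 339 of 569 and 385 of 648 in the others. It also stands on the list of T-cell transcription factors given below. Pdcd1, Lag3, Tigit, Havcr2 and Cd160 were lowest in that mouse among the 3. Lag3 measured 17.9 CPM there against 34.6 and 37.9, and Tigit 6.05 against 10.9 and 13.4. Cd274 minus Lag3 was 1.70 log2 units against 1.79 and 1.53. Relative to Pdcd1, Tigit and Cd160 it likewise lay between the other mice, and relative to Havcr2 it was lowest, at 2.03 against 2.32 and 2.25. These are the values of a single mouse, without a test.

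For each gene the most similar profiles among 14347 or 14348 candidate genes were sought, by the root mean square difference of centred log2 CPM over the 15 samples. Nearest to Cd274 were Oasl2, an interferon-induced antiviral gene (0.110 log2 units), Cxcl16, a chemokine gene (0.150), and Gbp7, an interferon-inducible GTPase (0.179). Among the checkpoint genes Havcr2 was the closest to Cd274, at rank 161 (0.389), and Pdcd1 lay at rank 13441 (1.56). This measure reads the size of a change as well as its shape: Tox, which was not called, lay at rank 3917 (1.16), nearer to Cd274 than Lag3 (1.43), Tigit (1.48), Btla (1.49) and Pdcd1.

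The receptors had other neighbours. Nearest to Pdcd1 were Zap70, a kinase of the T-cell receptor (0.319 log2 units), Icos, a costimulatory receptor (0.336), and Foxp3, the transcription factor of regulatory T-cells (0.351). Lag3 lay nearest to Icos (0.282), Lat (0.284) and Cst7 (0.305), and Tigit to Ccl5 (0.342), Cst7 (0.351) and Ctla4 (0.358), all genes of T- or cytotoxic lymphocytes. Havcr2 lay nearest to Clec7a (0.146), Cybb (0.172) and Itgax (0.179), which are genes of macrophages, phagocytes and dendritic cells. Btla lay nearest to Traf3ip3 (0.172), Ptprcap (0.232) and Kmo (0.236), Cd160 to Adam19 (0.315), Dok2 (0.320) and Bcat1 (0.331), and Pdcd1lg2 to Ciita (0.211), Cd86 (0.238) and H2-Q6 (0.243). Ciita and Cd86 belong to antigen-presenting cells. Tox, which hardly varied in CPM, lay near to Naif1 (0.0882) and Asxl1 (0.0976). These are likenesses of profile in bulk tissue and no p-value goes with them.

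Further genes of the same pathways were taken from lists. Of 15 ligands and partners of checkpoint receptors 10 were called higher at 12 against 4 weeks and 3 lower (median 1.24), where 26.3% of all tested genes were called higher and 27.2% lower. The costimulatory ligands Cd80 (log2 fold change 4.09) and Cd86 (3.93), found on antigen-presenting cells, had the largest log2 fold changes among them. Cd200, an inhibitory ligand of many cell types, had a log2 fold change of 0.13 and did not pass the test, and Nectin3, an adhesion molecule of the nectin family, fell by 0.57. The others that were called lower, Cd276 (-0.44) and Fgl1 (-1.71), are named after their values were seen, Fgl1 being a ligand of LAG3.

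Beside the same 26.3% of all genes, 11 of 12 tested related receptors of T-cells were called higher (median 3.74), such as Cd28 (4.93), the costimulatory receptor that PD-1 opposes, Cd96 (4.53) and the ectonucleotidase gene Entpd1 (1.36). The remaining gene was Tnfrsf9 (0.14), named after its value was seen. Among 12 transcription factors linked to activated or exhausted T-cells, Tox excluded, 11 were called higher (median 2.29), including Tcf7 (5.61), Eomes (6.08) and Nfatc1 (1.83), and the other was Nr4a2 (0.43), likewise named afterwards. Tox2, a relative of Tox also named afterwards, rose by 1.64. Of 5 genes of inhibitory signalling 4 were called higher, among them the phosphatase genes Ptpn6 (1.72) and Inpp5d (3.25), while Ptpn11, the ubiquitously expressed phosphatase recruited by PD-1, fell by 0.45.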

How the data were processed

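Islet RNA of 15 NOD females (3 per age) was analysed from the deposited gene table. The authors trimmed, aligned and counted polyadenylated-RNA read pairs in CLC Genomics Workbench with default settings, and mm10 is the build in the submitters' processing notes. The deposited counts are whole reads per gene, not normalized. The deposited TPM values were used only to order genes by level. The deposited CPM columns, scaled by the authors and here called a score because their sums differ between samples, entered no test. The 15 RPKM columns were not used.

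Genes were kept by filterByExpr (16554 of 48709, all 9 checkpoint genes among them), scaled by TMM and fitted with edgeR 4.0.16 (glmQLFit, glmQLFTest) in R 4.3.3, with 1 mean per age. A gene was called at a Benjamini-Hochberg adjusted p under 0.05 over all tested genes. Ratios and correlations used log2 CPM with a prior count of 2, and exact permutation tests over mice (scipy 1.17.1). CD3 ratios used an offset of 0.5 counts. DESeq2 1.42.0 was an alternative. The model was tested on simulated data at 12 against 4 weeks. It recovered 67 of 100 genes changed 2-fold and 78 of 100 changed 4-fold, with 8 false calls. A gene not called may therefore still have changed. No 2 mice of one age held identical counts. The genes and lists were chosen with earlier results of these data known. All 9 genes are named. From the other lists at most 4 examples were picked by rule, the 2 with the highest mean CPM and the 2 with the largest change at 12 against 4 weeks among those called. The 3 genes nearest in profile to each checkpoint gene were also picked by rule. Further genes, mostly those of a list that did not pass, were named after their values were seen. Irf1 and the CD3 genes were named for the ratios and correlations. Cd244a, Itgam and Fdcsp were not analysed here. Totals per sample ran from 25407492 to 41616275 counts. Taken on these unscaled totals, 3 counts correspond to 0.0721 to 0.118 CPM. The CPM of single genes given above are on TMM-scaled library sizes, so this range does not apply to them exactly. Of the 11 differences and 11 relations over which p-values were adjusted 1 each, and 1 gene of similar profile, are not reported here.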

Additional observations from a re-analysis of the deposited data

How the results depend on the processing

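At 12 against 4 weeks and in late against early mice, the 8 genes other than Tox kept their direction and their call under every alternative except the T-cell covariate and, for Tigit, the loss of replicate 2 or replicate 3 of the 4-week mice. Library totals, and for late against early mice also DESeq2 or the loss of replicate 2 of the 12-week mice, added a call of Tox. All 11 comparisons of Cd274 within mice kept their call under every alternative. With library totals 78.3% of calls at 12 against 4 weeks were higher, with DESeq2 size factors 55.9%. At 4 weeks Pdcd1lg2 rested on 0 to 12 counts, which limits the precision of its fold change.

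With the T-cell marker mean as a covariate, 172 genes were called at 12 against 4 weeks and 98 in late against early mice (8858 and 10568 without it), 0 of the 9 checkpoint genes were called in either, 95 genes were called at 6 against 4 weeks (15 without it) and 0 at 10 against 8 weeks (2776 without it). In that fit log2 fold changes turned negative at 6 against 4 weeks, with -0.029 for Cd274 and -0.20 for Tigit. In that fit log2 fold changes turned negative at 8 against 6 weeks, with -0.017 for Cd274, -0.86 for Pdcd1lg2 and -0.54 for Tigit. In that fit log2 fold changes turned negative at 10 against 8 weeks, with -0.42 for Pdcd1lg2, -0.51 for Pdcd1, -0.14 for Havcr2 and -0.54 for Tigit. In that fit log2 fold changes turned negative at 12 against 10 weeks, with -0.11 for Pdcd1lg2 and -0.010 for Havcr2. In that fit log2 fold changes turned negative at 12 against 4 weeks, with -0.17 for Cd274, -0.93 for Pdcd1lg2, -1.14 for Pdcd1, -0.21 for Lag3 and -1.73 for Tigit. In that fit log2 fold changes turned negative in late against early mice, with -1.10 for Pdcd1lg2, -0.64 for Pdcd1, -0.055 for Havcr2 and -1.40 for Tigit. The cause was not tested.

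The steps between neighbouring ages depended on the test. At 6 against 4 weeks 141 genes were called with only those ages in the fit, 265 by the edgeR exact test and 249 by DESeq2. At 8 against 6 weeks (0 called) the exact test called 157 and DESeq2 543, at 10 against 8 weeks 0 were called with only those ages and 140 by the exact test, and at 12 against 10 weeks (0 called) the exact test called 7 and DESeq2 12. DESeq2 called 1 checkpoint gene at 10 against 8 weeks. With only those ages in the fit 3 checkpoint genes passed the threshold of the study at 8 against 6 weeks (7 with all ages). Over all tested genes 1625 passed it in the main fit at that step. The alternatives gave 628 to 1899, with 628 under the T-cell covariate. The change of Tox at 8 against 6 weeks, -0.0039, became 0.011 with DESeq2 size factors, 0.10 with library totals, 0.0048 with only those ages, 0.0044 by the exact test and 0.011 by DESeq2. An alternative chosen after seeing the data left out both libraries with intestinal transcripts. It gave 0 genes called at 6 against 4 weeks and 1144 at 10 against 8 weeks, Pdcd1 at 0.066 (6 against 4 weeks), Havcr2 at -0.061 (12 against 10 weeks) and Tox at 0.022 (8 against 6 weeks).

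Same-numbered mice of different ages did not pair: 7 of 30 pairs correlated above 0.1, with a mean of -0.0795. With the replicate block 5 genes were called at 6 against 4 weeks and 0 at 10 against 8 weeks, Tigit was -0.082 at 6 against 4 weeks and Tox 0.0012 at 8 against 6 weeks, and 4 checkpoint genes passed the threshold of the study at 8 against 6 weeks (7 without the block) and 1 at 10 against 8 weeks (3 without it). The block called the same number of checkpoint genes in all 6 comparisons. Over all tested genes 2306 passed the threshold of the study at 10 against 8 weeks in the main fit, and 842 to 2568 in the alternatives.

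With single mice left out, genes called ranged from 0 to 69 at 6 against 4 weeks (0 without replicate 2 of the 6-week mice, 69 without replicate 1 of the 8-week mice), from 0 to 797 at 8 against 6 weeks (797 without replicate 1 of the 8-week mice) and from 0 to 5612 at 10 against 8 weeks (0 without replicate 1 or 2 of the 8-week or of the 10-week mice, 5612 without replicate 3 of the 10-week mice). Checkpoint genes called ranged from 0 to 1 in both of the latter steps (Lag3 without replicate 1 of the 8-week mice, Cd160 without replicate 3 of the 8-week or 10-week mice). The difference of Tigit relative to CD3 ranged from -0.79 to -0.45. Log2 fold changes changed sign at 6 against 4 weeks, with ranges of Cd274 -0.33 to 0.73, Pdcd1lg2 -0.65 to 3.43, Pdcd1 -2.61 to 1.99, Lag3 -1.16 to 1.32, Havcr2 -0.33 to 1.28, Tigit -1.72 to 2.50, Cd160 -0.77 to 0.20 and Btla -0.55 to 3.01. They did so at 12 against 10 weeks, with ranges of Pdcd1lg2 -0.10 to 0.34, Pdcd1 -0.28 to 0.17, Lag3 -0.46 to 0.15, Havcr2 -0.17 to 0.28, Tigit -0.43 to 0.087, Cd160 -0.65 to 0.22, Btla -0.026 to 0.43 and Tox -0.051 to 0.19, and at 8 against 6 weeks for Tox -0.095 to 0.068. None of those changes was called.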
